A study of Mus musculus with 6 samples.

Results

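Enzymes and transporters of the polyol, fructose and hexosamine pathways, and enzymes that remove methylglyoxal, were examined in the RNA of glomeruli, the filtering units of the kidney, in mice labelled DKD (diabetic kidney disease) or Control. The 9 genes were listed by name: Akr1b3 and Sord of the polyol pathway, Slc2a5, Khk and Tkfc of fructose uptake and breakdown, Glo1, Hagh and Akr1a1 of aldehyde and methylglyoxal removal, and Gfpt1 of the hexosamine pathway. All 9 were found among the 55401 genes of the deposited count table and all 9 were among the 19717 genes tested. The groups were DKD and Control with 3 libraries each. The labels carry these words in a genotype field and give no strain, age, sex or way of inducing the disease. Whether the numbered samples are different mice is not stated, and the p-values therefore refer to variation among the 6 libraries, which may be technical.

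In the polyol pathway aldose reductase (Akr1b3) reduces glucose to sorbitol with NADPH, and sorbitol dehydrogenase (Sord) oxidises sorbitol to fructose. Ketohexokinase (Khk) phosphorylates fructose, and triokinase (Tkfc) phosphorylates glyceraldehyde at a later step. Methylglyoxal, a reactive by-product of glycolysis that glycates proteins, binds glutathione, is turned into S-lactoylglutathione by glyoxalase 1 (Glo1) and is released as D-lactate by glyoxalase 2 (Hagh). The hexosamine pathway leaves glycolysis at fructose 6-phosphate, through the amidotransferase Gfpt1, and ends in UDP-N-acetylglucosamine, the donor for O-GlcNAc marks on proteins. These branches are textbook routes of glucose use under high glucose, and fructose breakdown in the kidney is known mainly from the proximal tubule.

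Of the library totals, the lowest was 71154026 counts and the highest 83576494. Levels are given in CPM, counts scaled to library size with TMM factors, and each difference is a log2 fold change of DKD over Control from edgeR's quasi-likelihood test. The label of the tissue was set against marker genes. The podocyte transcript Podxl averaged 157 ± 23.7 CPM in DKD and 236 ± 34.9 CPM in Control (SD, n = 3 each), whereas the proximal tubule transcript Kap averaged 8010 ± 3392 CPM in DKD and 12954 ± 7148 CPM in Control. The 18 listed proximal tubule markers held 2.98% ± 0.342 of the DKD counts and 3.89% ± 1.02 of the Control counts (exact permutation p = 0.2, two-sided, where 3 against 3 cannot go below 0.1). Taken singly, 16 of the 18 had estimates below 0 and 2 above, with a median log2 fold change of −0.67. An edgeR adjusted p of 0.05 was passed by 3 of them, all lower in DKD, against 0.431% of all genes tested. Pck1 went the other way within the summed share, at 6020 ± 1467 CPM in DKD and 1301 ± 724 CPM in Control. The 15 podocyte markers held 0.0495% ± 0.00761 of the DKD counts and 0.0807% ± 0.0192 of the Control counts, with no overlap (exact permutation p = 0.1, two-sided). The most abundant podocyte marker was thus far below the most abundant tubule marker in libraries labelled glomeruli, and in such bulk samples fewer cells of a type and less RNA per cell cannot be told apart. Distal nephron and collecting duct markers held 0.515% ± 0.146 of the counts in DKD and 0.607% ± 0.0968 in Control (exact permutation p = 0.4). Within this sum 1 marker was higher in DKD without overlap, Aqp2 (600 ± 122 CPM in DKD, 199 ± 111 CPM in Control). Another 3 were lower without overlap, and together these were 30.8% of the list, against 30.7% of all genes tested. Parietal epithelial markers held 0.0512% ± 0.00858 in DKD and 0.0382% ± 0.0107 in Control (exact p = 0.2). Endothelial markers held 0.0530% ± 0.0150 in DKD and 0.0752% ± 0.0229 in Control (exact p = 0.3), and mesangial markers 0.0543% ± 0.00134 in DKD and 0.0645% ± 0.0196 in Control (exact p = 0.4). Leukocyte markers held 0.0217% ± 0.00830 in DKD and 0.0172% ± 0.00710 in Control (exact p = 0.5), and erythrocyte markers 0.0737% ± 0.0606 in DKD and 0.0551% ± 0.0132 in Control (exact p = 0.8). Control replicate 3 stood apart from the other Control libraries, with 5.06% of its counts in proximal tubule markers, against 3.19% and 3.41% in Control replicates 1 and 2.

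Of the 9 genes, 0 passed an adjusted p of 0.05 in the edgeR test, where 1.16% of all genes tested passed, 0.725% higher and 0.431% lower in DKD. At an unadjusted p under 0.05 there was 1 of 9, Hagh, which was higher in DKD, against 22.6% of all genes tested. DESeq2 called the same single gene among the 9, against 13.7% of the genes it gave an adjusted p, and limma-voom called 0, against 1.03%. Groups without overlap were seen for 3 members (33.3%), Hagh higher and Sord and Gfpt1 lower in DKD, which is close to the 30.7% of all genes tested. The estimates were above 0 for 2 genes and below 0 for 7, with a median log2 fold change of −0.12, beside a median of 0.0029 over all genes tested.

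**Figure D1:**
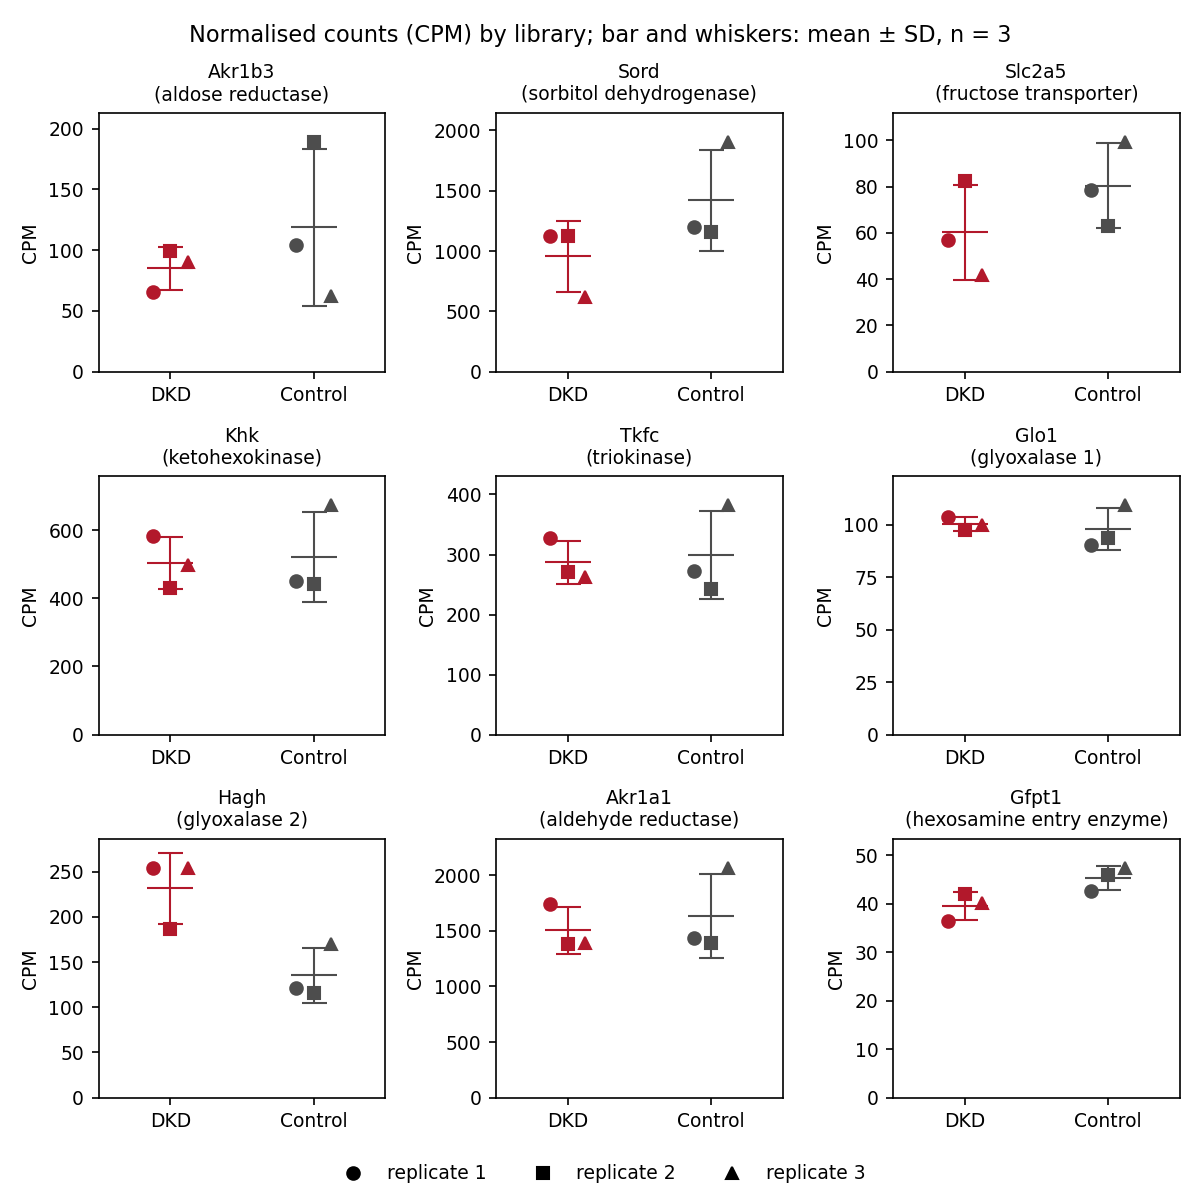
Normalised counts (CPM) of the 9 genes in each library, with DKD left of Control, 1 symbol per replicate number, and the mean with its SD (n = 3). Hagh lay between 187 and 254.5 CPM in DKD and between 115 and 170 CPM in Control, while the groups overlapped for Akr1b3, Slc2a5, Khk, Tkfc, Glo1 and Akr1a1.

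The enzymes that remove methylglyoxal are described first because they hold the member with the smallest p. Hagh (ENSMUSG00000024158, chromosome 17) hydrolyses S-lactoylglutathione to D-lactate and free glutathione, and in humans the gene is known to make both a cytosolic and a mitochondrial enzyme. It was measured at 254.5, 187 and 254.5 CPM in DKD replicates 1 to 3, and at 121, 115 and 170 CPM in Control replicates 1 to 3. Every DKD library lay above every Control library, and the highest Control value was that of replicate 3. The DKD mean was 232 ± 39.1 CPM and the Control mean 136 ± 30.3 CPM (SD, n = 3 each), a ratio of 1.71. The log2 fold change was 0.77 ± 0.20 (SE), with a 95% interval of 0.30 to 1.25, an unadjusted p of 0.00602 and an adjusted p of 0.0928 by edgeR. That adjusted p was 0.0104 with DESeq2, 0.0468 without Control replicate 3 (log2 fold change 0.97) and up to 0.259 over the other alternatives. Hagh therefore did not pass the threshold in the reported fit, and its estimate was above 0 in all 20 alternatives. Of these, 1 was the reported fit judged at an adjusted p under 0.1.

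Glo1 (ENSMUSG00000024026, chromosome 17), the enzyme of the step before, was measured at 104, 97.3 and 100.04 CPM in DKD replicates 1 to 3 and at 90.5, 93.8 and 109 CPM in Control replicates 1 to 3. The DKD values lay within the range of the Control values. Its log2 fold change was 0.04 ± 0.12, with a 95% interval of −0.24 to 0.31 and an adjusted p of 0.888 by edgeR. The ratio of Hagh to Glo1 CPM within a library was 2.45, 1.92 and 2.54 in DKD and 1.34, 1.23 and 1.56 in Control. This ratio did not overlap between the groups. Hagh alone did not overlap either and Glo1 differed little, so the ratio restates the difference in Hagh and is no separate result.

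Akr1a1 (ENSMUSG00000028692, chromosome 4), an aldehyde reductase that in mice makes gulonate for ascorbate synthesis and also reduces methylglyoxal, had 1744, 1376 and 1390.4 CPM in DKD replicates 1 to 3. In Control replicates 1 to 3 it had 1435, 1389 and 2066 CPM. The groups overlapped, the highest value being that of Control replicate 3, and the log2 fold change was −0.12 ± 0.22 (95% interval −0.64 to 0.41, edgeR adjusted p 0.800). Without Control replicate 3 the estimate was 0.090.

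Library-wide measures were set beside the difference in Hagh. Mitochondrially encoded genes held 18.7%, 15.3% and 18.4% of the counts in DKD replicates 1 to 3 and 11.8%, 10.65% and 12.2% in Control replicates 1 to 3. By a rule of likeness, the 3 tested genes whose centred log2 CPM ran closest to Hagh over the 6 libraries, out of 15295 candidates, were mt-Atp6, Cox6b1 and Uqcr11, with root mean square differences of 0.044, 0.052 and 0.057 on the log2 scale. The first is a mitochondrially encoded subunit of ATP synthase, and the others are nuclear-encoded subunits of cytochrome c oxidase and of the cytochrome bc1 complex. Their fold changes lie near that of Hagh by the way they were picked and are not tested here. Shorter transcripts were higher in DKD across genes, with a Spearman correlation of −0.270 between log2 fold change and log2 transcript length over 19684 genes, which are not independent replicates. The principal transcript of Hagh has 1191 bases, and with the length trend removed its log2 fold change was 0.66 (edgeR adjusted p 0.119). With the mitochondrially encoded genes left out of the fit, the log2 fold change of Hagh was 0.78 (edgeR adjusted p 0.0936). The median over all genes was 0.0030 in that fit and 0.0029 as reported. TMM factors were computed anew in that fit and centre the fold changes, so this median cannot show whether single genes moved. Whether Hagh followed mitochondrial content was not tested.

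The upstream sequence of Hagh is shown because it was the member with the smallest p. It covers the 250 bases before the first of its listed starts, 5′ to 3′ on the plus strand, from RefSeq on GRCm38.p6 at chr17:24850240-24850489, with matches to the GC box in capitals.
Hagh: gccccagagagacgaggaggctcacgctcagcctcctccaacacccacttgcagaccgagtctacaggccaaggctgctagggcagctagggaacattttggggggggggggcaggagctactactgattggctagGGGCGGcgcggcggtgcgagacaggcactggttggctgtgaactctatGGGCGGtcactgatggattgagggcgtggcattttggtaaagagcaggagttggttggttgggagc
The GC box was searched as GGGCGG on both strands. Within the same 250 bases the antioxidant response element core TGACNNNGC, the E-box CACGTG and an HNF4-type element CAAAGTNCA had no match, each searched on both strands. Of 32851 listed promoters of this length, 32.7% held a GC box, 10.2% the antioxidant response element core, 6.02% the E-box and 1.19% the HNF4-type element. A match describes letters and not a bound site.

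Both polyol genes had estimates below 0 that did not pass the test. Sord (ENSMUSG00000027227, chromosome 2) was measured at 1125, 1123 and 616 CPM in DKD replicates 1 to 3 and at 1201, 1158 and 1906 CPM in Control replicates 1 to 3. The groups did not overlap, but the nearest values, DKD replicate 1 and Control replicate 2, lay close together, and the extremes were DKD replicate 3 and Control replicate 3. The DKD mean was 67.2% of the Control mean, with a log2 fold change of −0.57 ± 0.31 (95% interval −1.30 to 0.15, edgeR adjusted p 0.316). Leaving out DKD replicate 3 gave −0.34 and leaving out Control replicate 3 gave −0.31. As a share of the summed proximal tubule marker CPM, Sord was 3.26%, 3.55% and 2.26% in DKD and 4.24%, 3.79% and 3.41% in Control, and on that scale the groups overlapped. Part of the transcript sequence of Sord, 35.9% of its 31-base words, also occurs in the processed pseudogene Gm6652, whose count was between 0.428% and 0.657% of that of Sord in each library.

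Akr1b3 (ENSMUSG00000001642, chromosome 6), which also makes sorbitol as an osmolyte in the renal medulla, was measured at 65.5, 99.7 and 90.5 CPM in DKD replicates 1 to 3. In Control replicates 1 to 3 it was measured at 104, 189 and 62.6 CPM. The Control libraries held both the highest and the lowest value of all 6, and the DKD libraries lay between them. The log2 fold change was −0.48 ± 0.38 (95% interval −1.36 to 0.41, edgeR adjusted p 0.498), and it was 0.029 without Control replicate 2. The ratio of Akr1b3 to Sord in CPM per kb of principal transcript was 0.0987, 0.150 and 0.249 in DKD and 0.147, 0.277 and 0.0557 in Control. The order of the libraries on this ratio did not follow the groups.

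The upstream sequence of Sord is shown beside that of Gfpt1, since these were the members whose DKD values all lay below the Control values. Both are on the plus strand of GRCm38.p6 in RefSeq, Sord at chr2:122234589-122234838 and Gfpt1 at chr6:87042596-87042845, and capitals mark the GC box on either strand.
Sord: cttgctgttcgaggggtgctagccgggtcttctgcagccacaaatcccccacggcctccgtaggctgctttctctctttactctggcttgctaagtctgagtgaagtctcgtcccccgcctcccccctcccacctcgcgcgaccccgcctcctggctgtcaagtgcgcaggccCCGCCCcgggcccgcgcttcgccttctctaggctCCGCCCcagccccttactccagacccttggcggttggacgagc
Gfpt1: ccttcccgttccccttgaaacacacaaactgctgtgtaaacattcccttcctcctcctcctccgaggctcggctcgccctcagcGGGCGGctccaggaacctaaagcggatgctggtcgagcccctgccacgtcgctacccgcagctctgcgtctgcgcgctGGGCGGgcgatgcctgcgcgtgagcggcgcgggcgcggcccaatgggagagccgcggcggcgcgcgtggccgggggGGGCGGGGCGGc
Sord held 2 GC boxes and Gfpt1 held 4, the last pair of which overlap each other, and neither held a match to the other motifs. GC content was 66.8% in the Sord window and 72% in that of Gfpt1.

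The genes of fructose breakdown were abundant and their groups overlapped. Khk (ENSMUSG00000029162, chromosome 5) had 582, 429 and 498 CPM in DKD replicates 1 to 3, against 451, 442 and 674 CPM in Control replicates 1 to 3. Tkfc (ENSMUSG00000034371, chromosome 19) had 328, 271 and 263 CPM in DKD, against 273, 243 and 383 CPM in Control. For both genes the highest value was that of Control replicate 3, the library with the largest share of proximal tubule markers. Khk had a log2 fold change of −0.05 ± 0.22 (95% interval −0.56 to 0.45, edgeR adjusted p 0.907) and Tkfc of −0.06 ± 0.20 (95% interval −0.53 to 0.41, edgeR adjusted p 0.888). Without Control replicate 3 the estimates were 0.17 and 0.15 in the same order, and neither passed. The ratio of Tkfc to Khk in CPM per kb varied little, at 0.396, 0.444 and 0.371 in DKD and 0.426, 0.386 and 0.399 in Control. Cyb561a3 and Ddb1 cover 20% of the exonic bases of Tkfc on the opposite strand, and the strand setting of the counting is not known, so reads of these genes may be mixed.

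The ratio of Khk to Sord in CPM per kb was 0.769, 0.567 and 1.20 in DKD and 0.558, 0.567 and 0.525 in Control. The value of DKD replicate 2 differed from that of Control replicate 2 only in the fourth decimal place, so the groups were apart by DKD replicates 1 and 3. Slc2a5 (ENSMUSG00000028976, chromosome 4), the facilitative fructose transporter GLUT5, was far less abundant, with 57.0, 82.3 and 41.7 CPM in DKD and 78.7, 63.0 and 99.4 CPM in Control. The groups overlapped, and the log2 fold change was −0.41 ± 0.27 (95% interval −1.04 to 0.22, edgeR adjusted p 0.407). It was −0.72 without DKD replicate 2 and −0.21 without DKD replicate 3.

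The upstream sequence of Khk is shown because among the 8 members with a listed promoter its window alone held an E-box, the hexamer known to be read by several glucose-responsive and clock-related factors. It lies on the plus strand of GRCm38.p6 at chr5:30921309-30921558 in RefSeq, and capitals mark the E-box and, further on, a GC box that does not overlap it.
Khk: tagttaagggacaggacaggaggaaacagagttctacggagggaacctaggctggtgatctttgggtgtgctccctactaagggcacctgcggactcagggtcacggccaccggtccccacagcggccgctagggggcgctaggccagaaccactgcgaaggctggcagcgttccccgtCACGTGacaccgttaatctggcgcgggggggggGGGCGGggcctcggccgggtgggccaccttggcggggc
The match is a description of these letters. Tkfc, at the later step of fructose breakdown, held 1 antioxidant response element core and 1 HNF4-type element in its own window and no GC box.

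**Figure D2:**
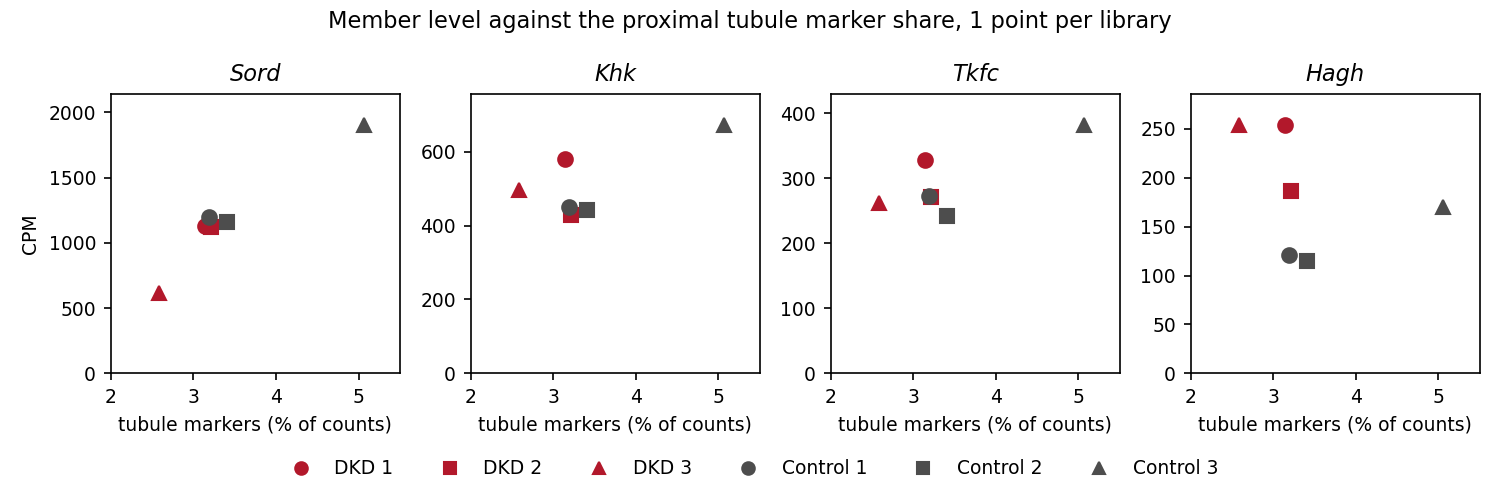
CPM of Sord, Khk, Tkfc and Hagh in each library (vertical axis) against the share of counts held by 18 proximal tubule markers (horizontal axis), 1 point per library. Control replicate 3, at 5.06%, had the highest Sord, Khk and Tkfc values, whereas the 3 highest Hagh values were those of the DKD libraries.

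Gfpt1 (ENSMUSG00000029992, chromosome 6), which commits fructose 6-phosphate to the hexosamine pathway, had 36.4, 42.1 and 40.1 CPM in DKD and 42.6, 46.0 and 47.5 CPM in Control. All DKD values lay below all Control values by a small margin. The DKD mean was 39.5 ± 2.87 CPM and the Control mean 45.3 ± 2.49 CPM, with a log2 fold change of −0.20 ± 0.10 (95% interval −0.44 to 0.05, edgeR adjusted p 0.311). Its principal transcript has 6238 bases, the longest used for the 9 genes, and with the length trend removed the log2 fold change was 0.023 (edgeR adjusted p 0.920).

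**Figure D3:**
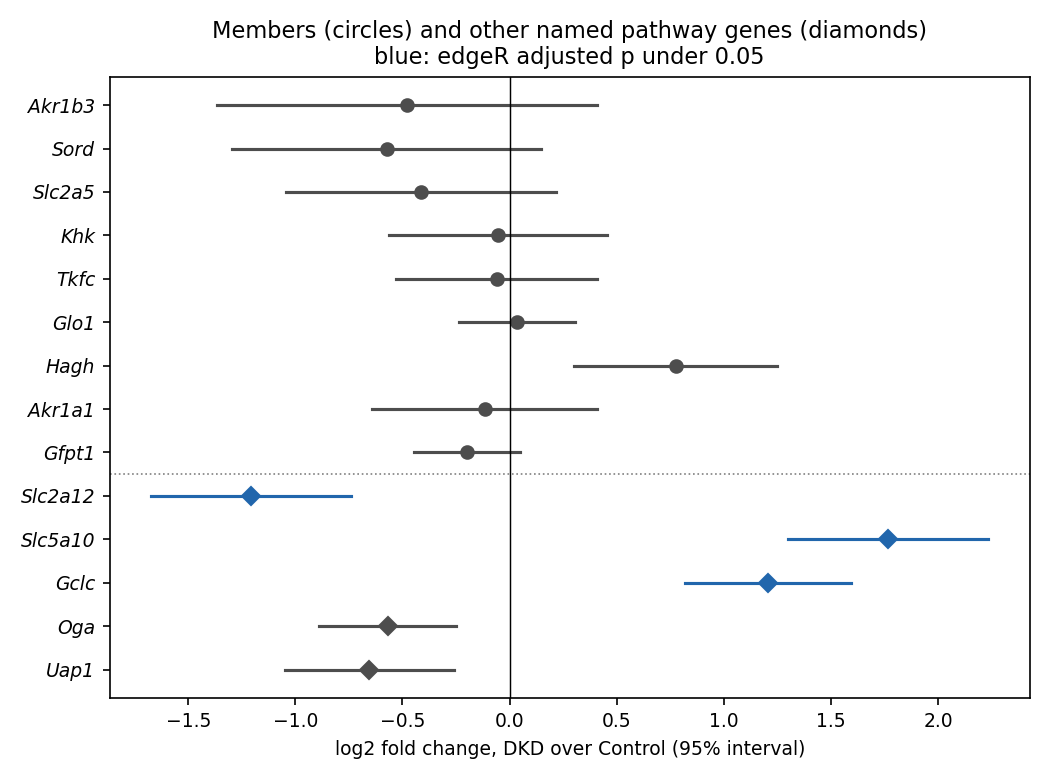
Log2 fold change of DKD over Control with its 95% interval for the 9 members (circles) and the other named pathway genes (diamonds), with genes past an edgeR adjusted p of 0.05 in blue. Hagh at 0.77 was the member farthest above 0, and Slc5a10 at 1.77, Gclc at 1.21 and Slc2a12 at −1.21 were the genes past the threshold.

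Per kb of principal transcript, a scale on which genes can be compared, the order of levels in DKD was Akr1a1 (1059 ± 147 CPM per kb), Sord (406 ± 125), Khk (318 ± 48.5), Hagh (195 ± 32.8), Tkfc (127 ± 15.8), Glo1 (112 ± 3.60), Akr1b3 (61.4 ± 12.8), Slc2a5 (19.1 ± 6.49) and Gfpt1 (6.34 ± 0.46). In Control it was Akr1a1 (1148 ± 266 CPM per kb), Sord (604 ± 179), Khk (330 ± 83.2), Tkfc (133 ± 32.7), Hagh (114 ± 25.4), Glo1 (109 ± 11.3), Akr1b3 (85.6 ± 46.5), Slc2a5 (25.4 ± 5.79) and Gfpt1 (7.27 ± 0.40). Hagh stood above Tkfc in each of the 3 DKD libraries and below it in each of the 3 Control libraries. The neighbours Sord and Khk in DKD, Tkfc and Glo1 in DKD, and Tkfc, Hagh, Glo1 and Akr1b3 in Control had values within an SD of each other. The level of Glo1 rests on a transcript of 895 bases, while another principal transcript in the annotation has 9865 bases, so its place in the order is uncertain. Together the 9 genes held between 0.312% and 0.392% of the counts in DKD libraries and between 0.418% and 0.500% in Control libraries. These are shares of library totals without TMM factors, a scale on which the median log2 fold change of all genes was −0.13. Akr1a1 and Sord held the largest shares in each library, so the sum says little of the other members, and it was not tested.

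Other genes of the same pathways were listed beside the members. Among 18 further polyol and fructose genes, 1 rose and 1 fell in DKD by edgeR. Over all genes tested 0.725% passed as higher and 0.431% as lower. At an unadjusted p under 0.05, 3 were higher and 4 lower (38.9%, against 22.6% of all genes tested). Slc5a10, a sodium-coupled transporter of mannose and fructose in the kidney (SGLT5), rose to 415, 431 and 516 CPM in DKD replicates 1 to 3, against 115, 116 and 169 CPM in Control replicates 1 to 3. No DKD value came near a Control value, and the log2 fold change was 1.77 ± 0.20 (95% interval 1.30 to 2.23, edgeR adjusted p 0.0192), a ratio of means of 3.40. Slc2a12, which encodes the facilitative glucose transporter GLUT12, fell to 4.99, 6.79 and 5.48 CPM in DKD, against 14.7, 10.9 and 14.3 CPM in Control. Its log2 fold change was −1.21 ± 0.20 (edgeR adjusted p 0.0452). The median of the list was 0.12, with 10 estimates above 0 and 8 below, and 44.4% of its genes had groups apart, against 30.7% of all genes tested.

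Both transporters lost the call when single libraries were left out. The adjusted p of Slc5a10 was 0.0925 without DKD replicate 1, 0.0703 without DKD replicate 3, 0.106 without Control replicate 1 and 0.0926 without Control replicate 2, with log2 fold changes between 1.67 and 1.97 over the 6 fits. That of Slc2a12 was above 0.05 in each of these fits except the one without DKD replicate 2 (0.0493). Over the 20 alternatives Slc2a12 lost the call in 11, including limma-voom (adjusted p 0.0515) and the tubule score as a covariate (edgeR adjusted p 0.121). Slc5a10 lost it in 5, including the replicate block (edgeR adjusted p 0.118). Slc2a2, the GLUT2 transporter through which hexoses leave the tubule cell, averaged 118 ± 11.8 CPM in DKD and 198 ± 66.3 CPM in Control, with no overlap (log2 fold change −0.75 ± 0.23, edgeR adjusted p 0.126). Glyctk, the kinase that takes up glycerate from fructose breakdown, averaged 103 ± 23.2 CPM in DKD and 230 ± 89.5 CPM in Control (−1.15 ± 0.30, edgeR adjusted p 0.0910). In the other direction, Akr1b8 averaged 11.4 ± 4.14 CPM in DKD and 4.75 ± 2.23 CPM in Control, with no overlap (1.26 ± 0.42, edgeR adjusted p 0.142). In this list the groups were apart for 3 genes higher and 5 lower in DKD. Slc2a2, Glyctk and Akr1b8 were picked out after their values were seen.

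Among 18 further glyoxalase, glycation and glutathione genes, 1 rose and 0 fell by edgeR, with 5 higher and 1 lower at an unadjusted p under 0.05 (33.3%). Over all genes tested 1.16% passed and 22.6% had an unadjusted p under 0.05, 11.8% higher and 10.9% lower. Gclc encodes the catalytic subunit of glutamate-cysteine ligase, the limiting step in making glutathione, which the Glo1 step takes up and the Hagh step sets free. It rose to 621, 493 and 632 CPM in DKD replicates 1 to 3, against 230, 285 and 241 CPM in Control replicates 1 to 3, a ratio of means of 2.31. The log2 fold change was 1.21 ± 0.17 (95% interval 0.82 to 1.60, edgeR adjusted p 0.0322). The adjusted p was between 0.106 and 0.137 without DKD replicate 1, DKD replicate 3, Control replicate 1 or Control replicate 2, while the log2 fold change stayed between 1.14 and 1.31 over the 6 fits. Gclc lost the call in 7 of the 20 alternatives. These included the proximal tubule score as a covariate (edgeR adjusted p 0.0747) and no filter on low counts (edgeR adjusted p 0.0540). Gclm, the regulatory subunit of the same enzyme, averaged 363 ± 43.3 CPM in DKD and 295 ± 73.4 CPM in Control, and the groups overlapped (0.30 ± 0.20). Lgals3, which encodes galectin 3, a lectin that binds glycated proteins, averaged 74.5 ± 10.6 CPM in DKD and 33.5 ± 9.09 CPM in Control (1.15 ± 0.22, edgeR adjusted p 0.0573). Ager, the receptor for advanced glycation end products, was low, at 2.12 ± 1.10 CPM in DKD and 2.36 ± 1.32 CPM in Control. Gclm, Lgals3 and Ager were picked out after their values were seen. The median of this list was 0.06.

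Among 15 further hexosamine and O-GlcNAc genes, 0 passed by edgeR, against 1.16% of all genes tested. At an unadjusted p under 0.05, 1 was higher and 3 were lower (26.7%), close to the 22.6% of all genes tested. Oga, the enzyme that removes O-GlcNAc, averaged 80.1 ± 7.58 CPM in DKD and 119 ± 15.0 CPM in Control, with no overlap (log2 fold change −0.57 ± 0.14, edgeR adjusted p 0.0801). Uap1, which makes UDP-N-acetylglucosamine, averaged 57.2 ± 3.92 CPM in DKD and 90.0 ± 19.1 CPM in Control, also with no overlap (−0.65 ± 0.17, edgeR adjusted p 0.0909). DESeq2, which called 13.7% of the genes it gave an adjusted p, called both. Its adjusted p-values were 0.00732 for Oga and 0.0141 for Uap1. With the tubule score as a covariate the log2 fold change was −0.28 for Oga (edgeR adjusted p 0.288) and −0.31 for Uap1 (edgeR adjusted p 0.398). With the length trend removed that of Oga was −0.39 (edgeR adjusted p 0.195). Ogt, the enzyme that adds the mark, averaged 228 ± 26.2 CPM in DKD and 251 ± 10.7 CPM in Control, and the groups overlapped (−0.14 ± 0.13; picked out after its values were seen). The median of the list was −0.11, with 5 estimates above 0 and 10 below.

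**Figure D4:**
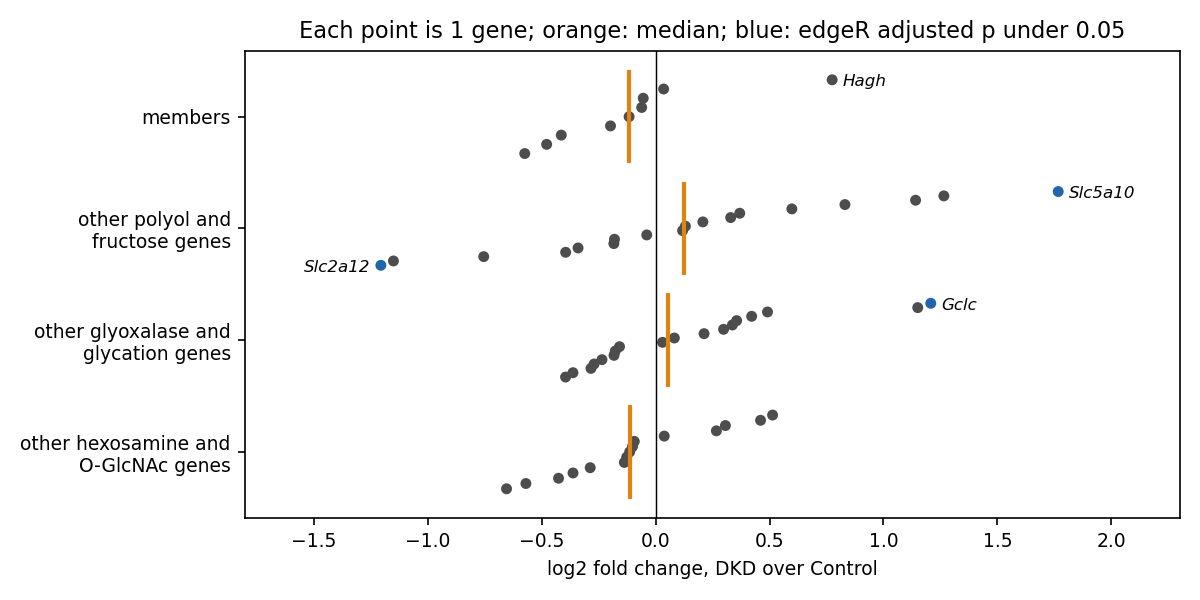
Log2 fold change of DKD over Control for each member and each gene of the 3 further lists, 1 point per gene, with the list's median in orange and genes past an edgeR adjusted p of 0.05 in blue. The medians lay at −0.12 for the members, 0.12 for further polyol and fructose genes, 0.06 for further glyoxalase and glycation genes and −0.11 for further hexosamine genes.

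Several members changed the sign of their estimate when a score of proximal tubule markers entered the fit. With this score as a covariate the log2 fold changes of Sord, Slc2a5, Khk, Tkfc and Akr1a1 were 0.19, 0.11, 0.42, 0.44 and 0.36, all above 0 where the reported ones were below, and that of Akr1b3 was −1.33. None of these passed the threshold. Hagh was at 1.12 in that fit (edgeR adjusted p 0.101). The score, a mean log2 CPM, was 9.48, 9.29 and 8.95 in DKD replicates 1 to 3 and 9.69, 9.69 and 10.5 in Control replicates 1 to 3. The score was lower in every DKD library than in every Control library, so score and group cannot be told apart in these fits. It weighs each marker alike, and whether it follows tubule content was not tested. The share of counts held by the same markers overlapped between the groups, with 3.21% in DKD replicate 2 and 3.19% in Control replicate 1.

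**Figure D5:**
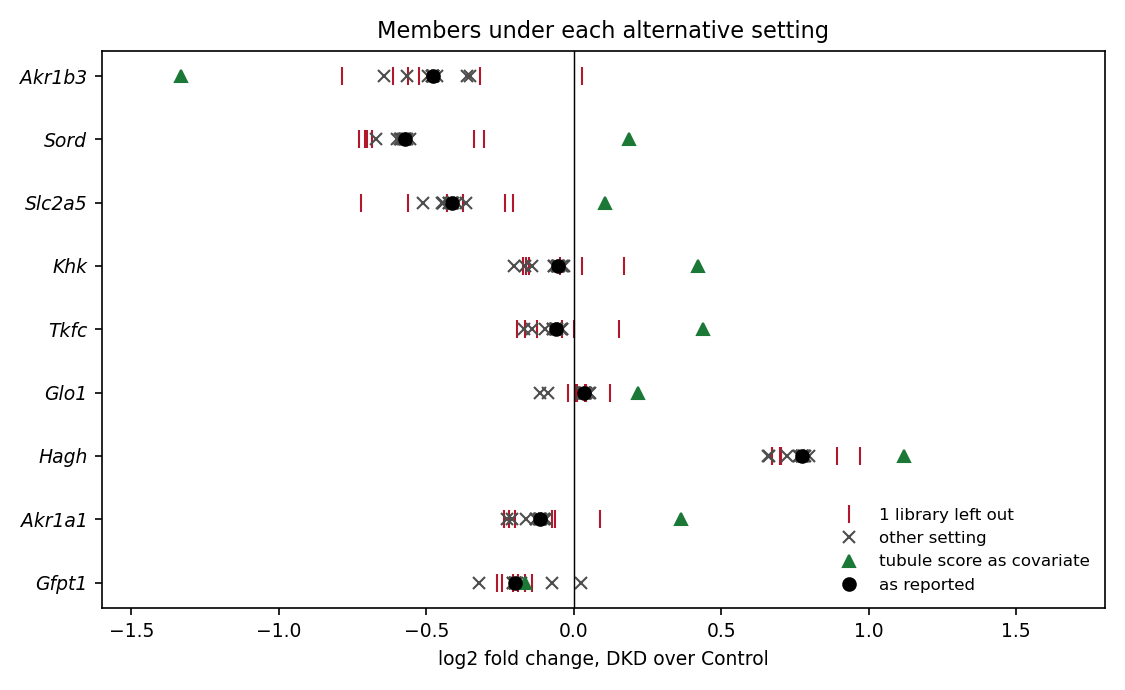
Log2 fold change of the 9 members as reported (black circles), with each library left out in turn (red bars), with the tubule score as a covariate (green triangles) and under the other settings (grey crosses). Hagh stayed between 0.66 and 1.12, whereas Akr1b3 spread between −1.33 and 0.029.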

How the data were processed

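Polyadenylated RNA from glomeruli was sequenced as dUTP-stranded paired-end libraries, per the labels' protocols. The submitters' processing notes name fastp, HISAT2, StringTie and edgeR with GRCm39 but not their roles. Versions, annotation release and strand setting: not given in the sources used here. As deposited, the table holds unnormalized whole-number counts for Ensembl genes in 1 column per library. Of the values from 20 to 99, between 26.7% and 28.8% in a library were multiples of 4, and of those from 100 upward between 24.8% and 25.3%. Whether the counts were derived from coverage is not stated, and low counts may not be plain read tallies. The lowest count of a member in any library was 2438. Symbols were matched for 55141 of 55401 identifiers from GENCODE M21, on GRCm38; transcript length, GC content and sharing came from the same annotation, and promoter sequences from RefSeq on GRCm38.p6. Akr1b3 is also written Akr1b1.

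Genes were kept with filterByExpr (minimum count 10), scaled with TMM factors and tested with edgeR 4.0.16 in R 4.3.3 by the quasi-likelihood test, with group as the only term. P-values were adjusted by Benjamini-Hochberg over the 19717 genes tested, with a threshold of 0.05. Errors beside fold changes are SE. Principal transcripts are the best APPRIS-ranked ones, those linked to RefSeq first. Alternatives used DESeq2 1.42.0, limma-voom (limma 3.58.1), other scalings and filters, robust dispersion, covariates, trends on length or GC content removed (5 degrees of freedom), and each library left out. The procedure was tested on simulated data. The biological coefficient of variation was 33.2%. Log CPM correlated between 0.954 and 0.980 within groups.

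The members, lists and tests were chosen with earlier results of these data known. Named genes are all members, and of each further list the genes past the threshold or otherwise the 2 with the smallest p; of each marker list up to 3 abundant members could be given as levels; and 3 genes most like the member with the smallest p were taken, leaving out predicted and clone-named models.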

Additional observations from a re-analysis of the deposited data

How the results depend on the processing

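Members past the threshold numbered 0 as reported, 1 with DESeq2, 1 at an adjusted p under 0.1, and from 0 to 1 with 1 library left out, the 1 being Hagh each time. Of the 51 further pathway genes 3 passed as reported, 1 with no filter on low counts, 10 with DESeq2, 0 with the replicate block, 1 with the tubule score, 7 at an adjusted p under 0.1, and from 0 to 3 with 1 library left out (0 without DKD replicate 1, DKD replicate 3, Control replicate 1 or Control replicate 2). Over all genes 228 passed as reported (143 higher, 85 lower), 275 with library totals (101 higher, 174 lower, median shifted by −0.13), 516 with a filter of 1 CPM in 3 libraries, 56 with no filter, 2483 with DESeq2, 0 with the replicate block, 89 with the tubule score, 1478 at an adjusted p under 0.1, and from 1 to 386 with 1 library left out (1 without Control replicate 1, 4 without DKD replicate 1, 10 without DKD replicate 3, 13 without Control replicate 2). Whether the replicate numbers pair the samples is not stated. Deviations of same-numbered libraries correlated at −0.18, 0.07 and −0.22, and 1 of 6 libraries was most like its own number. With 3 libraries per group these values cannot decide whether the samples were paired. The difference in proximal tubule share was −0.91 percentage points as reported and as pairs by replicate block, and ran from −1.26 to −0.32 with 1 library left out.

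Of 280 alternatives for the 14 named genes, 235 gave the same direction and the same side of the threshold. For each gene, 1 of the 20 alternatives was the reported fit judged at an adjusted p under 0.1. The estimate changed sign with the tubule score for Sord (0.19), Slc2a5 (0.11), Khk (0.42), Tkfc (0.44) and Akr1a1 (0.36). With 1 library left out, estimates ran from −0.78 to 0.029 for Akr1b3, −0.17 to 0.17 for Khk, −0.19 to 0.15 for Tkfc, −0.24 to 0.090 for Akr1a1 and −0.020 to 0.12 for Glo1. The sign changed without Control replicate 3 for Khk, Tkfc and Akr1a1, without DKD replicate 2 for Khk (0.029), without Control replicate 2 for Akr1b3 and without Control replicate 1 for Glo1. Glo1 was at −0.087 with library totals and −0.11 with the length trend removed, and Gfpt1 at 0.023 with the length trend removed. None of these estimates passed the threshold, and the cause was not tested.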
